A study of Mus musculus with 9 samples.

Results

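The genes described here are the RasGRP exchange factors Rasgrp1, Rasgrp2, Rasgrp3 and Rasgrp4, the diacylglycerol kinases Dgka, Dgkz, Dgkd and Dgke, and protein kinase C theta (Prkcq). They were chosen by name, as genes of families linked to diacylglycerol, and with earlier results of these data known. They were found in the expression table by gene symbol. All 9 listed genes were found among the 24060 genes of the table. All 9 were also among the 11330 genes tested, which had a maximum above 1 TPM (transcript abundance corrected for gene length and library size) over the 9 libraries. Rasgrp3 and Rasgrp4 exceeded 1 TPM only in R7-II libraries, so they entered the test only through the clone in which they were highest. The same held for 513 of all genes tested, of which 292 passed higher in R7-II against R7-I and 280 against R7-III.

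RNA was sequenced from 3 clones of mouse CD8 T cells, R7-I, R7-II and R7-III, with 3 libraries per clone labelled as biological replicates. Each clone comes from a transnuclear mouse line, which carries in its own receptor loci the T cell receptor of 1 CD8 T cell specific for a peptide of the Toxoplasma gondii protein ROP7, so that a line stands for a single receptor. The mice were on a BALB/c background with intact Rag2, and no age is stated for them. Spleen cells of all 3 lines were kept overnight with IL-2 (10 ng/ml) and the ROP7 peptide at 10 µM, and CD3+ CD8+ cells that bound the H-2Ld-ROP7 tetramer were then sorted to a purity of 90 to 95%. As the study describes the clones, affinity for the peptide falls in the order R7-I, R7-III, R7-II, and self-reactivity in the order R7-III, R7-I, R7-II. The question was how expression differs between activated clones that differ in these properties. Cells without peptide were not analysed here, so a level in one clone is read only against the other clones and not against a resting state. TPM keeps no sequencing depth, and the study gives only a typical depth, so that of each library is unknown. Between 13738 and 14434 genes were above 0 TPM in a library.

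Diacylglycerol is released at the membrane when the T cell receptor activates phospholipase C gamma. It recruits RasGRP1, which belongs to a family of exchange factors that load Ras or Rap GTPases with GTP. It also recruits protein kinase C theta, which signals to NF-kB. Diacylglycerol kinases phosphorylate the lipid to phosphatidic acid and so end its signal, and the alpha and zeta forms are the kinases best known for this in T cells.

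Of the 9 genes, 5 passed in R7-II against R7-I, all of them higher in R7-II, at an adjusted p of at most 0.01 (limma, Benjamini-Hochberg over every gene tested). They were Rasgrp1, Rasgrp2, Dgka, Dgkz and Prkcq. Among all genes tested, 56.1% passed in that comparison and 40.6% passed with the higher level in R7-II. The same 5 genes passed in R7-II against R7-III, again higher in R7-II, where 53.6% of all genes passed and 35.6% were higher in R7-II. The count of 5 of 9 thus lies near the share of all genes in both comparisons, and the comparisons share the R7-II libraries, as each shares those of 1 clone with the comparison of R7-III with R7-I. A difference of more than 2-fold on the log2(TPM + 1) scale was found for Rasgrp1, Rasgrp2 and Dgka in both comparisons, while 5.98% of all genes tested both passed and were more than 2-fold higher in R7-II against R7-I, and 4.77% against R7-III. Against R7-I, Rasgrp1 is near this limit, at 1.05, and it drops below 1 after median-of-ratios scaling (0.88), after quantile normalization (0.92), with a pseudocount of 5 (0.98) and without R7-II replicate 1 (0.992) or 3 (0.999), while it still passes in each. For 6 of the 9 genes each R7-II library exceeded all 6 others, namely the 5 above and Rasgrp3, and this held for 41.7% of all genes tested.

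In the comparison of R7-III with R7-I 3 of the 9 genes passed, Dgka, Dgkz and Prkcq, each higher in R7-III, against 8.41% of all genes in either direction and 6.96% higher in R7-III. Each of these 3 calls was lost under several other settings. Over all genes tested the median log2 difference was 0.17 when R7-II is set against R7-I, 0.12 when it is set against R7-III, and 0.04 in the comparison of R7-III with R7-I. After division of each library by a median-of-ratios factor these medians were 0.0084, 0.0042 and 0.00044. The share of passing genes that were higher moved with it from 72.4% to 47.7%, from 66.4% to 47.9% and from 82.8% to 59.0%. Differences of single genes are therefore also given after that scaling.

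**Figure D1:**
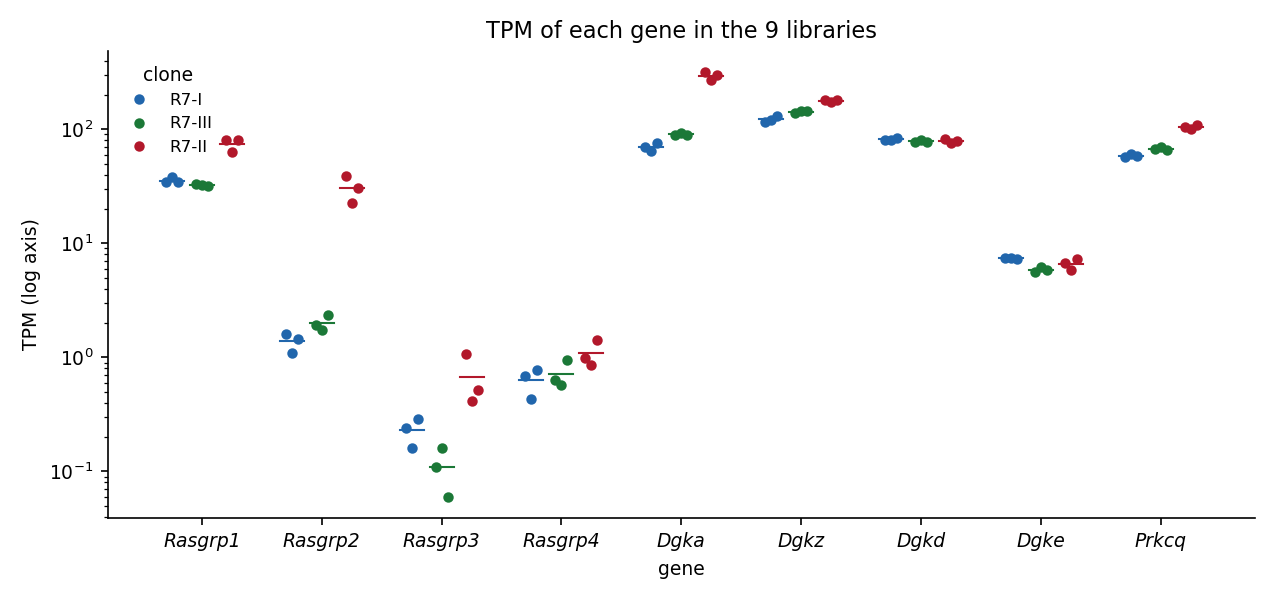
TPM of each gene (log axis) in the 3 libraries of each clone, with points for libraries and bars for their mean. The R7-II points lie above all points of the other clones for Rasgrp1, Rasgrp2, Rasgrp3, Dgka, Dgkz and Prkcq, with Rasgrp2 at 22.7 to 38.7 TPM in R7-II and 1.09 to 2.33 TPM in the others, and overlap at least 1 other clone for Dgkd, Dgke and Rasgrp4.

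Rasgrp1, the main RasGRP exchange factor for Ras in T cells, was at 34.2, 38.0 and 34.1 TPM in the R7-I libraries and at 33.0, 32.7 and 32.0 TPM in the R7-III libraries. In R7-II it was at 81.0, 63.5 and 80.2 TPM. The R7-II libraries stood apart from the other 6, and R7-I lay slightly above R7-III without overlap. Mean levels were 35.4 ± 2.21 TPM in R7-I, 32.6 ± 0.536 in R7-III and 74.9 ± 9.92 TPM in R7-II (SD, n = 3 libraries each). The log2 difference was 1.05 (SE 0.084) against R7-I with an adjusted p of 1.90e-06 and 1.17 (SE 0.084) against R7-III with an adjusted p of 8.97e-07, both from limma with Benjamini-Hochberg adjustment. After median-of-ratios scaling the differences were 0.88 and 1.04. R7-III and R7-I differed by -0.12, with a 95% confidence interval from -0.30 to 0.07, and did not pass (adjusted p = 0.376, limma). In bulk RNA, fewer cells that express a gene and less of its RNA per cell cannot be told apart.

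Rasgrp2, an exchange factor that acts mainly on Rap GTPases and is linked to integrin activation, was at 1.61, 1.09 and 1.44 TPM in R7-I and at 1.92, 1.72 and 2.33 in R7-III. In R7-II its level was 38.7, 22.7 and 30.7 TPM. It was thus low in all 6 libraries of R7-I and R7-III and high in every R7-II library, with replicate 1 the highest and replicate 2 the lowest. Its mean rose from 1.38 ± 0.265 TPM in R7-I and 1.99 ± 0.311 in R7-III to 30.7 ± 8.0 TPM in R7-II (SD, n = 3 each), ratios of the means of 22.2 and 15.4. On the log2(TPM + 1) scale, which understates the change of a gene that is low in one clone, the difference was 3.71 (SE 0.17) against R7-I, adjusted p = 6.30e-08, and 3.38 (SE 0.17) against R7-III, adjusted p = 1.27e-07 (limma with Benjamini-Hochberg adjustment). Median-of-ratios scaling gave 3.57 and 3.26. Among the 11330 genes tested it ranked 4 by the difference from R7-I and 6 by that from R7-III. The study itself already lists Rasgrp2 among the genes most upregulated in activated R7-II. By level it stood at percentile 11.4 of the genes tested in R7-I, 13.3 in R7-III and 56.0 in R7-II. R7-III and R7-I differed by 0.33, 95% confidence interval -0.04 to 0.70, which did not pass (adjusted p = 0.208, limma), although their libraries did not overlap.

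Rasgrp3, which is best known in B cells, was close to the lower end of the table in every clone. It was at 0.24, 0.16 and 0.29 TPM in R7-I, at 0.11, 0.16 and 0.06 in R7-III, and at 1.07, 0.41 and 0.52 TPM in R7-II. The R7-II libraries lay above the others, and R7-I and R7-III overlapped. The differences of 0.42 from R7-I and 0.57 from R7-III did not pass (adjusted p = 0.0397 and 0.0101, limma, Benjamini-Hochberg). Over the alternatives the adjusted p from limma ran from 0.00485 to 0.0944 against R7-III and from 0.0165 to 0.569 against R7-I. It passed against R7-III in 5 of 17 alternatives, among them a pseudocount of 0.1 and the fit without R7-II replicate 2 (adjusted p = 0.00489 and 0.00485, limma).

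Rasgrp4, which is best known in mast cells and other myeloid cells, was at 0.68, 0.43 and 0.78 TPM in R7-I, at 0.63, 0.57 and 0.94 in R7-III and at 0.99, 0.86 and 1.43 TPM in R7-II. The R7-II libraries lay above those of R7-I and overlapped those of R7-III. No comparison passed, with differences of 0.36 and 0.29 for R7-II against R7-I and R7-III (adjusted p = 0.0563 and 0.118, limma, Benjamini-Hochberg).

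As a description of the family, the 4 RasGRP genes together made up 36.7, 39.7 and 36.6 TPM in R7-I, 35.7, 35.2 and 35.3 in R7-III, and 121.7, 87.4 and 112.9 TPM in R7-II. Rasgrp1 held 94.0 ± 1.52% of this sum in R7-I, 92.0 ± 1.31% in R7-III and 70.1 ± 3.16% in R7-II (SD, n = 3). The share of Rasgrp2 was 3.69 ± 0.845%, 5.63 ± 0.882% and 28.3 ± 3.07% in the same order. Rasgrp1 was thus the most abundant RasGRP transcript in all 9 libraries, and the mean ratio of Rasgrp1 to Rasgrp2 was 26.6 in R7-I, 16.6 in R7-III and 2.51 in R7-II. Division of a library by a scaling factor leaves these shares and ratios as they are.

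**Figure D2:**
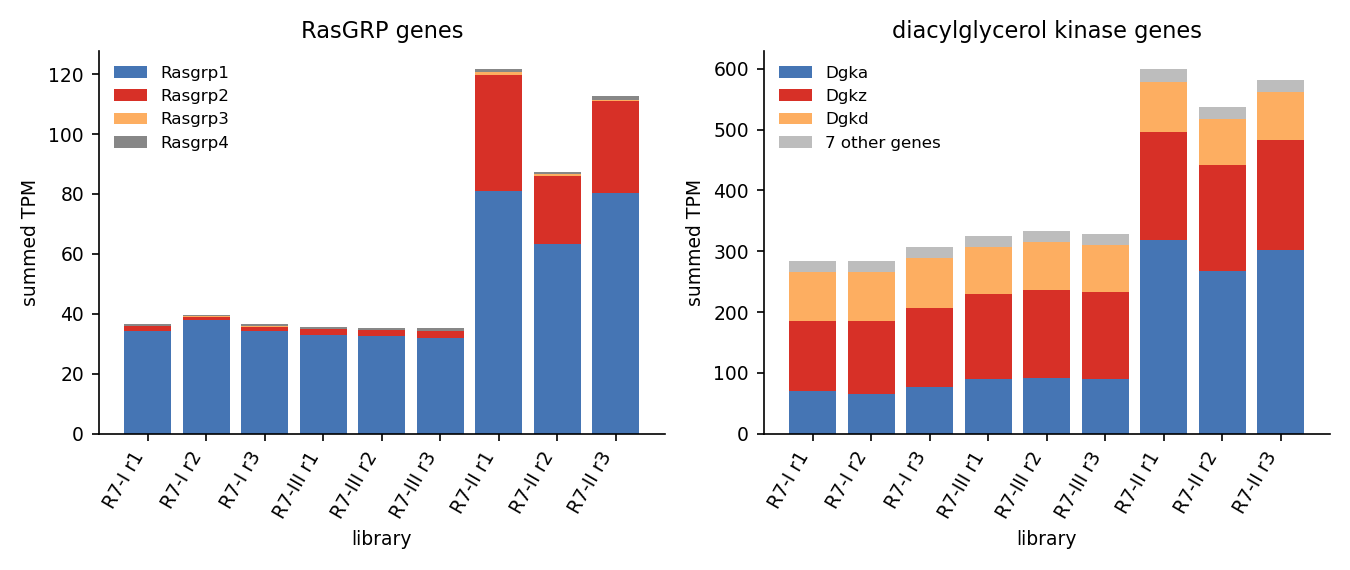
Summed TPM of the RasGRP genes (left) and of the diacylglycerol kinase genes (right) in each library, with colours for single genes and r1 to r3 for replicates. Rasgrp2 is 28.3% of the left bar on average in R7-II against 3.69% in R7-I, and the Dgka part is larger than the Dgkz part only in the R7-II libraries (51.5% against 31.2% on average).

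Several lists of transcripts that mark other cell types of the spleen were also higher in the R7-II libraries. Of 10 B cell markers 8 were tested, and all 8 passed higher in R7-II against both clones, also after median-of-ratios scaling (7 and 8 after quantile normalization), but 3 of the 8 exceeded 1 TPM only in R7-II libraries and so were tested only through them. Their summed level was 11.5, 15.9 and 8.84 TPM in R7-I, 5.41, 8.44 and 7.90 in R7-III, and 74.7, 36.1 and 58.0 TPM in R7-II. The most abundant B cell marker, Cd79b, was at 25.4, 13.7 and 17.1 TPM in R7-II, and none of the markers was at 0 in all libraries. The B cell sum was highest in R7-II replicate 1 and lowest in R7-II replicate 2, as were Rasgrp1, Rasgrp2, Rasgrp3, Dgka and Dgkd within R7-II. Rasgrp4, Dgkz, Dgke and Prkcq were also lowest in R7-II replicate 2 but highest in R7-II replicate 3. The median-of-ratios factors of the R7-II libraries had the same order as the B cell sum, at 1.10, 1.05 and 1.07, so this order is not particular to B cell markers. All 7 MHC class II genes passed higher in both comparisons, also after median-of-ratios scaling (6 in each after quantile normalization), with sums of 34.5, 50.4 and 33.0 TPM in R7-I, 25.0, 29.2 and 25.4 in R7-III, and 185.9, 114.8 and 183.6 TPM in R7-II, and with Cd74 as the most abundant. None of these genes was at 0 in all libraries, and Ciita exceeded 1 TPM only in R7-II libraries.

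Of 12 myeloid markers 11 were tested, of which 8 passed higher in R7-II against R7-I and 9 against R7-III, 4 of these 8 and 5 of these 9 being genes above 1 TPM only in R7-II libraries. Their sum was 75.7, 72.8 and 67.0 TPM in R7-I, 75.1, 71.0 and 67.7 in R7-III, and 121.8, 106.6 and 170.6 TPM in R7-II. Cst3, the most abundant, was at 66.1, 64.3 and 79.5 TPM on average in R7-I, R7-III and R7-II, and no marker was at 0 in all libraries. Lyz2, with the largest differences of those that passed, was at 0.25, 0.45 and 0.65 TPM in R7-I, 2.43, 1.57 and 1.66 in R7-III and 28.2, 13.8 and 56.7 TPM in R7-II, differences of 4.34 and 3.35 against 3.71 and 3.38 for Rasgrp2. After median-of-ratios scaling 7 and 6 of them passed higher, and after quantile normalization 2 and 6. Of 10 platelet and megakaryocyte markers only Itga2b and Itgb3 were tested, Itgb3 only through the R7-II libraries. Both passed higher in R7-II on TPM, but 1 of the 2 did so against R7-I and 2 against R7-III after median-of-ratios scaling, and 1 in each comparison after quantile normalization. The platelet sum was 1.61, 1.60 and 1.64 TPM in R7-I, 1.66, 1.98 and 1.46 in R7-III and 5.45, 4.63 and 5.49 TPM in R7-II, with Itga2b the most abundant, while Ppbp and Treml1 were listed at 0 in all 9 libraries. Of 8 mast cell and basophil markers 3 were tested, with sums of 1.47, 1.38 and 1.49 TPM in R7-I, 5.90, 6.35 and 6.38 in R7-III and 2.91, 4.14 and 5.70 TPM in R7-II, Kit the most abundant, and Mcpt4 and Tpsb2 listed at 0. Of these 3, 2 passed higher in R7-II against R7-I, 1 of them (Mcpt8) above 1 TPM only in R7-II libraries, with 1 after median-of-ratios scaling and none after quantile normalization, and Kit was highest in R7-III, passing as lower in R7-II than in R7-III (-1.26) and higher in R7-III than in R7-I (1.68).

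The part of other cells in the levels of the 9 genes was not tested. Without R7-II replicate 1, which had the highest B cell sum, the difference of Rasgrp2 was 3.53 from R7-I and 3.20 from R7-III, that of Dgka 2.00 and 1.64, and that of Rasgrp1 0.99 and 1.11, while the 2 R7-II libraries left still had B cell sums above those of the other clones. The defining genes of the sorted cells were abundant in every clone: the 8 CD8 T cell markers summed to 1861, 1810 and 1764 TPM in R7-I, 1946, 1964 and 1872 in R7-III and 2582, 2524 and 2672 TPM in R7-II. Cd8b1 was at 319.8, 325.9 and 518.5 TPM on average in R7-I, R7-III and R7-II, and Cd3g was above it in R7-III, at 367.0 TPM. Of the 8 CD8 T cell markers 6 passed higher in R7-II against R7-I and 7 against R7-III, with 5 in each after median-of-ratios scaling. The CD4 T cell markers did not exceed a sum of 8.01 TPM in any library. Of these 4 markers 2 were tested, and neither passed in R7-II against R7-I. Against R7-III, Foxp3, above 1 TPM only in R7-II libraries, passed higher in R7-II and Cd40lg passed lower (-1.03). After quantile normalization none passed higher and 1 passed lower. Cd4 itself was not tested, at 0.300, 0.377 and 0.980 TPM on average in R7-I, R7-III and R7-II. Of 7 dendritic cell markers 3 were tested and 2, above 1 TPM only outside R7-II, passed lower in R7-II in both comparisons, with sums of 4.81, 5.41 and 3.66 TPM in R7-I, 5.50, 4.53 and 2.88 in R7-III and 2.01, 1.77 and 2.84 TPM in R7-II, Zbtb46 the most abundant, and Clec9a listed at 0. Of 4 natural killer cell markers 1 and of 6 erythroid markers 4 were tested, and none passed in any comparison on TPM, while after quantile normalization 1 natural killer cell marker passed lower in R7-II against R7-I and 1 erythroid marker lower in R7-II in each comparison.

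Dgka, the diacylglycerol kinase alpha, was at 69.7, 64.9 and 76.5 TPM in R7-I and at 89.6, 91.9 and 89.3 in R7-III. In R7-II it was at 317.8, 267.7 and 301.5 TPM. The 3 clones did not overlap, in the order R7-I, R7-III, R7-II from low to high, and the step to R7-II was the larger. Means were 70.4 ± 5.81, 90.3 ± 1.43 and 295.7 ± 25.6 TPM in that order (SD, n = 3), so the mean of R7-II was 4.20 times that of R7-I and 3.28 times that of R7-III. The log2 differences were 2.06 (SE 0.067, adjusted p = 1.51e-08) and 1.70 (SE 0.067, adjusted p = 5.59e-08) from limma with Benjamini-Hochberg adjustment, and 1.88 and 1.57 after median-of-ratios scaling. Its percentile by level among the genes tested was 78.9 in R7-I, 82.9 in R7-III and 95.9 in R7-II.

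Between R7-III and R7-I the difference of Dgka was 0.36, with a 95% confidence interval from 0.21 to 0.51 and an adjusted p of 0.00467 (limma with Benjamini-Hochberg adjustment). It was lost in 8 of 19 alternatives, 5 of them those without R7-I replicate 1 or 2 or without any 1 of the R7-III libraries, over which the difference stayed between 0.30 and 0.37 and the adjusted p was between 0.0168 and 0.0219 (limma). Over all its alternatives the adjusted p ran from 0.00171 to 0.0219 (limma).

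Dgkz, the diacylglycerol kinase zeta, was at 115.1, 120.1 and 130.2 TPM in R7-I, at 140.2, 144.0 and 143.3 in R7-III and at 178.9, 174.8 and 181.0 TPM in R7-II. These libraries fell into the same order as those of Dgka and again did not overlap between clones, but lay much closer together. The mean of R7-II was 1.46 times that of R7-I and 1.25 times that of R7-III. The log2 difference was 0.55 from R7-I and 0.32 from R7-III (adjusted p = 1.44e-06 and 6.35e-05, limma, Benjamini-Hochberg), to be read against the medians of 0.17 and 0.12 over all genes. After median-of-ratios scaling 0.37 and 0.19 were left, and both passed. Between R7-III and R7-I the difference was 0.23 (adjusted p = 0.00428, limma), and it no longer passed in 7 of 19 alternatives, among them that scaling (0.18, adjusted p = 0.0114, limma) and the fits without R7-I replicate 1 or 2 or without any 1 of the R7-III libraries (adjusted p between 0.0142 and 0.0210, limma). Over its alternatives the adjusted p ran from 0.00124 to 0.0210 (limma).

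Dgkd, the delta form, was at 80.5, 80.7 and 83.1 TPM in R7-I, at 77.6, 79.9 and 78.0 in R7-III and at 82.3, 75.3 and 78.9 TPM in R7-II. R7-II overlapped both other clones. Its differences of -0.05 from R7-I and 0.0055 from R7-III did not pass, with 95% confidence intervals from -0.13 to 0.04 and from -0.08 to 0.09 (adjusted p = 0.288 and 0.907, limma, Benjamini-Hochberg), whereas after median-of-ratios scaling it passed as lower in R7-II in both comparisons, by -0.22 and -0.12 (adjusted p = 7.97e-05 and 0.00418, limma). Quantile normalization gave -0.13 against R7-I, which passed (adjusted p = 0.00430, limma), and -0.04 against R7-III, which did not (adjusted p = 0.258, limma). Over the alternatives the adjusted p ran from 7.97e-05 to 0.721 against R7-I and from 0.00418 to 0.981 against R7-III (limma). The difference of -0.05 between R7-III and R7-I did not pass in any alternative.

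Dgke, the epsilon form, was the lowest of the 4 kinases, at 7.38, 7.43 and 7.27 TPM in R7-I, 5.63, 6.16 and 5.84 in R7-III and 6.68, 5.83 and 7.23 TPM in R7-II. R7-I lay above both other clones and R7-II overlapped R7-III. No comparison passed on TPM, with differences of -0.15 and 0.14 for R7-II from R7-I and R7-III, and of -0.28 for R7-III from R7-I (adjusted p = 0.131, 0.155 and 0.0338, limma, Benjamini-Hochberg). It passed as lower in R7-II than in R7-I after median-of-ratios scaling and after quantile normalization, by -0.30 and -0.47 (adjusted p = 0.00475 and 2.15e-04, limma), and as lower in R7-III than in R7-I after quantile normalization, by -0.42 (adjusted p = 0.00394, limma). The adjusted p over the alternatives ran from 2.15e-04 to 0.394 for the first of these comparisons and from 0.00394 to 0.115 for the other (limma).

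Dgkq, the most abundant of the other 6 diacylglycerol kinase genes, was at 9.56, 10.1 and 8.61 TPM in R7-I, 9.55, 9.61 and 9.92 in R7-III and 12.8, 11.8 and 11.8 TPM in R7-II. It passed as higher in R7-II on TPM, by 0.34 and 0.30 (adjusted p = 0.00134 and 0.00312, limma, Benjamini-Hochberg), and in neither comparison after median-of-ratios scaling. Dgkh and Dgkg stayed at or below 1.30 TPM on average in every clone and passed in no comparison on TPM, while Dgkh passed as lower in R7-II than in R7-III after median-of-ratios scaling (-0.46). Dgkb was listed at 0 in all 9 libraries, and Dgki and Dgkk had a mean of at most 0.0067 TPM in any clone and were not tested.

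As a description, all 10 diacylglycerol kinase genes together made up 292.0 ± 13.2 TPM in R7-I, 328.7 ± 4.42 in R7-III and 573.1 ± 32.6 TPM in R7-II (SD, n = 3). Dgkz was the most abundant of them in all libraries of R7-I and R7-III, with 41.7 ± 0.998% and 43.4 ± 0.291% of the sum. In R7-II the most abundant was Dgka, with 51.5 ± 1.57% of the sum against 31.2 ± 1.38% for Dgkz, while Dgka held 24.1 ± 1.12% in R7-I and 27.5 ± 0.204% in R7-III. The ratio of Dgka to Dgkz was 0.605, 0.541 and 0.588 in the R7-I libraries, 0.639, 0.638 and 0.623 in R7-III, and 1.78, 1.53 and 1.67 in R7-II. The kinases together had 7.77 times the summed TPM of the RasGRP genes in R7-I, 9.29 times in R7-III and 5.41 times in R7-II.

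Prkcq, the protein kinase C form that couples the receptor to NF-kB, was at 56.7, 61.0 and 58.4 TPM in R7-I, at 66.5, 69.5 and 65.8 in R7-III and at 103.8, 101.4 and 109.0 TPM in R7-II. The clones did not overlap and stood in the same order as for Dgka and Dgkz. The log2 difference of R7-II was 0.82 (SE 0.041) against R7-I and 0.63 (SE 0.041) against R7-III (adjusted p = 1.01e-07 and 5.03e-07, limma, Benjamini-Hochberg), and 0.65 and 0.51 after median-of-ratios scaling. Between R7-III and R7-I it was 0.19 with an adjusted p of 0.00937 (limma), just under the threshold, and it no longer passed in 12 of 19 alternatives, among them median-of-ratios scaling (0.15, adjusted p = 0.0363, limma) and those without any 1 of the R7-I or R7-III libraries or without R7-II replicate 1 (adjusted p between 0.0106 and 0.0460, limma). Over its alternatives the adjusted p ran from 0.00743 to 0.0460 (limma).

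**Figure D3:**
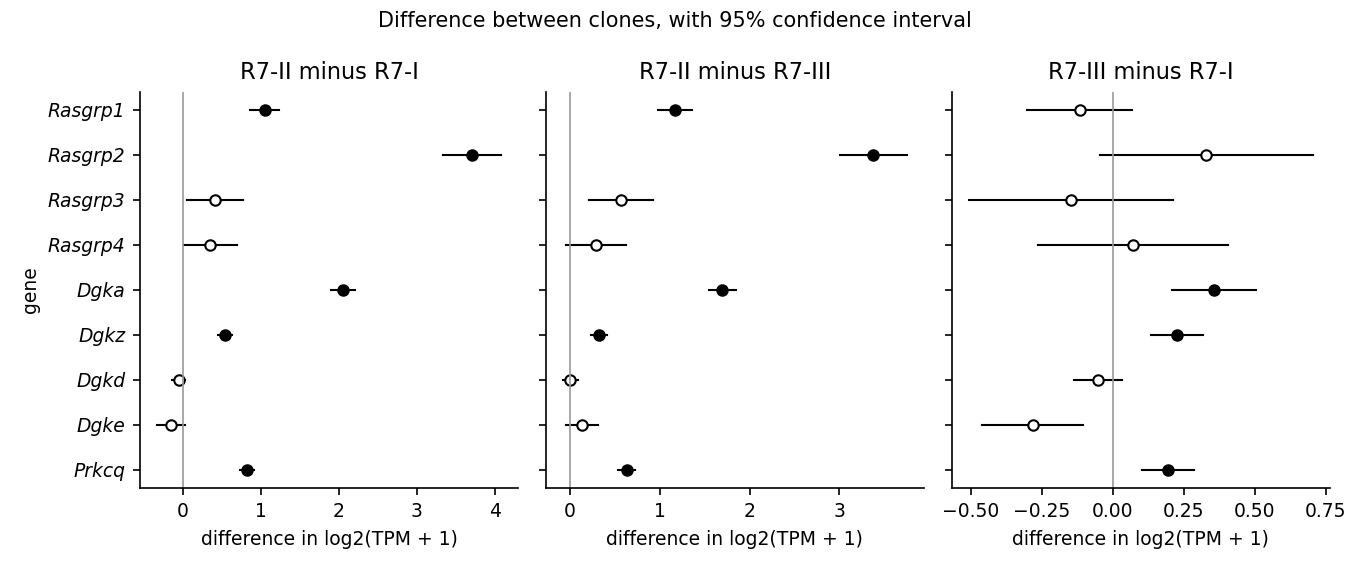
Difference between clones in log2(TPM + 1) for each gene, with 95% confidence interval from limma; filled points passed an adjusted p of 0.01, and each panel has its own horizontal scale. Rasgrp2 has the largest difference in both R7-II panels (3.71 and 3.38), and Dgkd, near 0 there, passed as lower in R7-II after median-of-ratios scaling.

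The genes with the profiles most like those of the 5 genes were found by the root mean square difference between log2(TPM + 1) values over the 9 libraries, each gene centred on its own mean. As the smallest of all such differences, theirs lie below the median by construction, so the median only gives a scale. Nearest to Rasgrp2 were Klf2 (0.178), Tnfrsf19 (0.210) and Cd7 (0.231), while the median over all genes was 1.62. Tnfrsf19 here, and L1cam near Rasgrp1, exceeded 1 TPM only in R7-II libraries, and log2(TPM + 1) compresses low values, so that L1cam at 0.157, 0.137 and 1.69 TPM in R7-I, R7-III and R7-II has a larger ratio than Rasgrp1 with a like difference. Klf2, a transcription factor of resting T cells, was at 9.14 ± 0.644 TPM in R7-I, 9.36 ± 0.558 in R7-III and 102.2 ± 20.5 TPM in R7-II (SD, n = 3). Nearest to Dgka were Sfxn3 (0.0568), Nipal3 (0.0680) and Fam65b (0.0690), against a median of 0.839. Nearest to Rasgrp1 were Utrn (0.0553), Bin1 (0.0672) and L1cam (0.0703), against a median of 0.488. Nearest to Prkcq were Arhgap26 (0.0343), Col11a2 (0.0436) and Il27ra (0.0481), against a median of 0.321, and nearest to Dgkz were Tshz1 (0.0349), Rbm38 (0.0384) and Tbc1d9b (0.0385), against a median of 0.229.

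The other genes of the pathway are read against all 11330 genes tested, of which 4604 passed higher and 1754 lower in R7-II compared with R7-I, and 4038 higher and 2039 lower compared with R7-III, with medians of 0.17 and 0.12. Upstream of diacylglycerol, 9 of 11 receptor-proximal adaptors and kinases passed higher in R7-II in each comparison and none lower (medians 0.31 and 0.33), with 6 and 7 after median-of-ratios scaling and 10 and 9 after quantile normalization. Txk and Grap2 differed most, at 11.9 and 55.2 TPM in R7-I, 12.1 and 52.8 in R7-III and 35.2 and 113.4 TPM in R7-II, while the most abundant, Lat, was at 523.4, 556.1 and 699.4 TPM. Of 14 other lipid enzymes tested of 22 that make or use diacylglycerol, 7 passed higher in each comparison and none lower (medians 0.38 and 0.38), and 6 in each after median-of-ratios scaling, but after quantile normalization 4 passed higher and 2 lower against R7-I (median 0.057) and 5 higher against R7-III. Of these 7, 2 exceeded 1 TPM only in R7-II libraries, and 5 passed among the 11 enzymes above 1 TPM in R7-II and in another clone. Plcg1, the phospholipase C gamma of the T cell receptor pathway and the most abundant of them, was at 27.1 ± 1.2 TPM in R7-I, 31.1 ± 0.373 in R7-III and 50.3 ± 4.29 TPM in R7-II (SD, n = 3). Lpin1, a phosphatidate phosphatase that forms diacylglycerol, was at 3.41, 3.84 and 11.6 TPM and Plcb2 at 9.16, 10.7 and 19.5 TPM in the same order, and Dgat2 passed in no comparison.

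Of the Ras and Rap GTPases on which RasGRP proteins act, 10 of 11 were tested, and 4 passed higher and 2 lower in R7-II in each comparison (medians 0.04 and 0.12), against 2 higher with 4 and 2 lower after median-of-ratios scaling and 2 higher and 2 lower in each after quantile normalization. Rap1b, the most abundant, was at 644.0 ± 22.2 TPM in R7-I, 576.5 ± 11.7 in R7-III and 462.9 ± 20.6 TPM in R7-II (SD, n = 3), and like Hras (48.3, 49.7 and 36.2 TPM) it passed as lower in R7-II under both scalings. Rap2b and Rras were the genes with the largest gain, Rap2b at 10.3 TPM in R7-I and 17.9 in R7-II and Rras at 4.00 and 7.20 TPM, and Rap1a did not pass on TPM but passed as lower in R7-II than in R7-I after median-of-ratios scaling (-0.16). Of 7 other exchange factors tested of 9, 4 and 5 passed higher and none lower (medians 0.32 and 0.44), and 3 and 5 after median-of-ratios scaling, with 2 and 3 higher and 1 lower against R7-I after quantile normalization; among the 5 of them above 1 TPM in R7-II and in another clone, 3 passed higher in each comparison. Rapgef4, tested only through the R7-II libraries, was at 0.470, 0.407 and 4.01 TPM, Rapgef2 at 6.49, 6.14 and 10.1 TPM, and the abundant Rapgef6 at 61.7, 63.2 and 86.0 TPM, while Rapgef1 did not pass. Of 13 GTPase-activating proteins tested of 16, 4 and 7 passed higher and 1 lower (medians 0.22 and 0.26), and 3 and 4 higher with 2 lower after median-of-ratios scaling and 3 higher in each with 3 and 1 lower after quantile normalization, 1 of the 7 being above 1 TPM only in R7-II libraries. Rasa3 was at 14.1, 17.7 and 58.6 TPM and Rasal3, the most abundant in R7-II, at 52.9, 56.1 and 95.6 TPM. Dab2ip, lower in R7-II, was at 3.22, 3.08 and 1.74 TPM. Sipa1, at 57.6, 64.3 and 62.7 TPM, did not pass on TPM but passed as lower in R7-II than in R7-III after median-of-ratios scaling (-0.16).

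Of 9 kinases and scaffolds of the Raf cascade 4 and 3 passed higher and 1 and 2 lower in R7-II (medians 0.06 and 0.07), with 3 and 1 higher and 5 and 4 lower after median-of-ratios scaling, and 3 higher and 2 lower in each after quantile normalization. Mapk3 was at 14.7, 18.9 and 25.7 TPM in R7-I, R7-III and R7-II, Braf at 11.5, 12.2 and 15.6 TPM and Ksr1 at 26.3, 26.2 and 17.5 TPM; after median-of-ratios scaling Braf no longer passed against R7-III. Of 14 ERK response and feedback genes 4 and 2 passed higher and 6 and 4 lower (medians -0.14 and -0.04), with 2 higher in each and 7 and 5 lower after median-of-ratios scaling, and 3 and 2 higher and 8 and 6 lower after quantile normalization. Egr1 and Fos, immediate early transcription factors, were higher in R7-II at 98.0 and 5.71, 98.8 and 6.14, and 177.6 and 11.3 TPM, and Ier3 and Spry2 lower at 13.0 and 24.1, 13.2 and 22.0, and 5.14 and 11.5 TPM in the same order. Spry1, the most abundant, was at 238.9, 204.5 and 190.1 TPM, and Ier2 at 158.3, 180.0 and 179.8 TPM.

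Of 9 other protein kinases C and D tested of 11, 5 passed higher in each comparison and 1 and 2 lower (medians 0.35 and 0.25), and 4 higher in each with 3 and 2 lower after median-of-ratios scaling. After quantile normalization 4 and 2 passed higher and 3 and 3 lower (medians -0.00020 and 0.10), so the balance of these kinases depends on the scaling. Prkch, the most abundant, was at 70.2 ± 1.76 TPM in R7-I, 66.4 ± 2.21 in R7-III and 120.7 ± 8.62 TPM in R7-II. Prkd2 was at 43.7, 51.4 and 86.2 TPM, and Prkca, a conventional form, went the other way at 53.7, 61.3 and 31.0 TPM. Of 7 genes through which protein kinase C theta acts on NF-kB 3 and 6 passed higher and 1 lower (medians 0.18 and 0.28), with 3 higher in each and 2 and 1 lower after median-of-ratios scaling, and 2 and 3 higher with 2 and 1 lower after quantile normalization. Ikbkb was at 54.5, 58.9 and 75.9 TPM and Bcl10 at 62.2, 57.8 and 70.7 TPM. Malt1, the most abundant in R7-I and R7-III, was lower in R7-II, at 99.0, 85.5 and 55.5 TPM. Of 9 Rap effectors and integrin activation genes 7 and 6 passed higher and none lower (medians 0.33 and 0.40), with 6 and 5 higher and 2 and 1 lower after median-of-ratios scaling, and 7 and 6 higher and none lower after quantile normalization. The adaptors Fyb and Skap1 were at 18.3 and 30.2, 19.9 and 42.3, and 66.7 and 65.0 TPM, Stk4 at 126.3, 119.3 and 157.7 TPM, and Itgal, the most abundant, at 305.6, 324.4 and 309.7 TPM without passing on TPM and lower in R7-II after median-of-ratios scaling. Between R7-III and R7-I, Prkcb, Fermt3 and Skap1 passed higher in R7-III and Dusp5 lower, and none of the other genes of these pathway lists passed on TPM (named after their values were seen), while Rap1b and Traf6 passed as lower after median-of-ratios scaling.

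Positions are those of the RefSeq annotation of GRCm38.p6, the same build as mm10. Rasgrp1 lies at chr2:117279983-117342877, Prkcq at chr2:11171905-11301226 and Rasgrp3 at chr17:75435870-75529054, with no other annotated gene over them. Dgka (chr10:128720131-128745084) overlaps Pmel and Gm31504, Dgkz (chr2:91932822-91976443) overlaps Gm39876 and Mir6999, Dgkd (chr1:87853264-87945177) overlaps Gm19582 and Usp40, Dgke (chr11:89035179-89060795) overlaps Dgkeos, Rasgrp4 (chr7:29134607-29153961) overlaps Fam98c and Rasgrp2 (chr19:6398957-6415216) overlaps Gm14965. The libraries keep no strand, so reads from overlapping parts of 2 genes cannot be told apart. Pmel was at 0.730, 0.580 and 0.640 TPM in R7-I, 1.02, 0.730 and 1.31 in R7-III and 5.96, 4.07 and 4.97 TPM in R7-II, in each library far below Dgka. Fam98c was at 16.2, 15.4 and 14.4 TPM in R7-I, 16.1, 17.4 and 15.3 in R7-III and 18.9, 17.9 and 17.7 TPM in R7-II, in each library far above Rasgrp4, and it passed as higher in R7-II against R7-I (0.23, adjusted p = 0.00739, limma, Benjamini-Hochberg) and not against R7-III. Usp40 was at 12.0, 11.5 and 12.8 TPM on average, below Dgkd, and did not pass on TPM. Pygm, which ends 493 bases from Rasgrp2 and was chosen after its values were seen, was at 0.827, 0.733 and 2.61 TPM on average in R7-I, R7-III and R7-II, with differences of 0.99 and 1.07 (adjusted p = 4.49e-05 and 2.75e-05, limma, Benjamini-Hochberg). The next tested gene on that side, Sf1, was at 220.3, 223.6 and 236.4 TPM and did not pass on TPM.

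The 250 bases before annotated transcription starts were searched on both strands for 7 short motifs, since 5 of the 9 genes were higher in the same clone. RefSeq promoter sequences on GRCm38.p6 held 14 such windows for 8 of the 9 genes. The motifs, with the share of 32536 windows of all genes that hold them, were TGTTTAC (FOXO, 3.17%), CCACACCC (KLF, 3.20%), CCGGAAG (ETS, 6.95%), TGANTCA (AP-1, 6.73%), GCGNGGGCG (EGR, 4.74%), CACGTG (E-box, 6.04%) and TGGAAA (NFAT, 18.6%). Matches were found in 3 of 4 Dgka windows and, for CCGGAAG, in 1 of 2 Rasgrp2 windows, 184 bases before the start in a window that lies within annotated exons. The windows of Rasgrp1, Dgkz and Prkcq held none of these letters. The Dgka windows with a match are shown because Dgka had the largest difference among the kinases, and the matches are in capitals. They lie on the minus strand at chr10:128745085-128745334, chr10:128744077-128744326 and chr10:128737613-128737862, in that order, and do not overlap annotated exons. TGGAAA, or its reverse complement, begins 106, 96 and 133 bases before the start, and CACGTG 17 bases before the start of the last. A match is a description, not a site or a cause.
Dgka start site 1: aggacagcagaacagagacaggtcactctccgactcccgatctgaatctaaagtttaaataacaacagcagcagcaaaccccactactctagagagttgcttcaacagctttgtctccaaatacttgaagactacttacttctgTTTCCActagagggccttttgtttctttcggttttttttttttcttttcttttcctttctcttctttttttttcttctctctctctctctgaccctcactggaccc
Dgka start site 2: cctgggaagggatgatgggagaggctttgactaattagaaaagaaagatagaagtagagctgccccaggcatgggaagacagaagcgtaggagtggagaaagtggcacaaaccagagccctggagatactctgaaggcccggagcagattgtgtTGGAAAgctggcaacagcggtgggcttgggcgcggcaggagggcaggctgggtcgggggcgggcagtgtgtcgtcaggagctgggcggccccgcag
Dgka start site 4: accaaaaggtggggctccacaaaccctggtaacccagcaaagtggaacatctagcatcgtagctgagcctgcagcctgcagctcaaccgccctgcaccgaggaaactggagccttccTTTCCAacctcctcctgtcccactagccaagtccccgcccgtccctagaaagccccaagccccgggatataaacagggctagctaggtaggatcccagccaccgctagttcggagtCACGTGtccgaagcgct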

How the data were processed

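PolyA RNA of the 9 sorted samples was sequenced as non-stranded single reads from TruSeq mRNA libraries. The authors estimated gene levels with RSEM 1.2.11 on mm10 and deposited them as TPM, which sum to 1000000 per library and keep no depth of their own, so no counting error is given for single libraries. The authors also used DESeq2 1.8.1 on counts, which were not used here. Libraries of a clone correlated at r of 0.992 to 0.997 across genes and no pair was identical.

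Genes with a maximum above 1 TPM were fitted as log2(TPM + 1) by clone in 1 limma 3.58.1 model (R 4.3.3) over all 9 libraries, with a mean-variance trend, Benjamini-Hochberg adjustment over 11330 genes and an adjusted p of at most 0.01 in each of 3 comparisons. The code was tested on simulated data. Replicates are labelled biological, but separate animals are not named, so p-values measure the spread between these samples. Genes of each list were named by abundance and by the smaller of both R7-II differences; the 9 genes, the lists and the motifs were chosen with earlier results of these data known. Lists are described by counts and medians without a test. Alternatives were other pseudocounts, filters, scalings, moderation and thresholds, pairwise fits, a replicate block and leaving out each library; those for list counts were added after seeing the data.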

Additional observations from a re-analysis of the deposited data

How the results depend on the processing

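The differences of Rasgrp1, Rasgrp2, Dgka, Dgkz and Prkcq in R7-II against either clone kept their direction and passed in all 19 alternatives, with log2 differences against R7-I of 0.88 to 1.17, 2.46 to 4.36, 1.88 to 2.12, 0.37 to 0.60 and 0.65 to 0.85. Over all 9 genes and 3 comparisons, 499 values were recomputed: 452 kept direction and side of the threshold, 27 lost the call, 12 gained it and 8 changed sign. For Dgkd in R7-II against R7-III these were -0.12 after median-of-ratios scaling, the only 1 of the 8 to pass, -0.041 after quantile normalization, -0.026 without R7-II replicate 1 and -0.0028 without R7-III replicate 1, in a range of -0.026 to 0.037 with 1 library left out. The others were Dgke in R7-II against R7-III (-0.052 after quantile normalization) and Rasgrp4 in R7-III against R7-I (-0.0042 after quantile normalization, -0.020 when R7-I replicate 2 is left out and -0.021 when R7-III replicate 3 is, in a range of -0.021 to 0.14 over the libraries left out); the cause was not tested.

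In R7-III against R7-I the count of the 9 genes passing fell from 3 to 1 without a filter on low values, to 1 with median-of-ratios scaling and to 0 without a trend in the moderation. Leaving out 1 library gave 0 to 3, and 0 without R7-I replicate 1 or 2 or any 1 of the R7-III libraries. Genes passing there rose from 953 to 2142 at an adjusted p of 0.05 and were 436 to 1120 with 1 library left out: 436 and 577 without R7-I replicate 1 and 2, and 496, 497 and 530 without R7-III replicate 1, 2 and 3. Those fits hold 1 library less by construction, and for the other settings the cause was not tested.

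Same-numbered libraries of different clones did not deviate together (r between -0.045 and 0.089, and 3 of 9 libraries correlated best with their own number), so the numbers are not taken as pairs. With a replicate block 6015, 5786 and 733 genes passed in R7-II against R7-I, R7-II against R7-III and R7-III against R7-I, and 5, 5 and 2 of the 9 genes.

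Library by library the depth is unknown, so levels under 1 TPM, as for Rasgrp3 and Rasgrp4, have no stated counting error.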
